A study of Schizosaccharomyces pombe with 32 samples.

Results

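The genes described here encode proteins of the mitochondrial ribosome of the fission yeast Schizosaccharomyces pombe. They were taken by name: every probe set whose gene symbol begins with mrpl, mrps or rsm followed by a digit, or is rml2, which gave 40 probe sets for 40 genes among the 4972 probe sets of the array. Of these 40 members, 26 carry the name of a large subunit protein and 13 that of a small subunit protein. The remaining member, rsm1, shares only the prefix: in fission yeast it is known as a messenger RNA export factor, so values without it are given where they matter. Of the 4972 probe sets, 2903 had 1 gene symbol and 2053 were unnamed here. RefSeq lists 54 protein-coding genes whose symbol fits the same pattern, and 14 of them are not among the members.

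The strain was JB50, a homothallic h90 strain for which the labels name no further allele, grown at 32 °C in rich medium in shake flasks. The stressed series received 0.5 mM hydrogen peroxide and was sampled at 11 times, first at 0, 5, 10 and 15 min, then at 30, 50 and 60 min, and last at 90, 120, 180 and 240 min, with 1 array at each time from each of 2 batch cultures (22 arrays). Its 0 min arrays are labelled as having no peroxide. The untreated series came from 2 further batch cultures of unstressed, exponentially growing cells, sampled at 0, 60, 120, 180 and 240 min (10 arrays). Every group of 1 series at 1 time therefore held 2 arrays. The p-values measure a spread between same-time arrays that was pooled over all 16 groups, not that of the compared groups alone. The main fit treated samples of 1 culture at different times as independent. The labels mention 2 cultures at an optical density of 0.4 and 1 at 0.7 and do not say which arrays came from which. Arrays with the same number in their titles were taken as 1 culture. The labels name no other treatment, deletion or transgene in any group. Each array measured the RNA of a whole culture, so fewer cells holding a transcript and less of it per cell cannot be told apart.

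Mitochondria keep a small genome of their own, and in yeasts most of the proteins it encodes are subunits of the respiratory chain and the ATP synthase. A dedicated ribosome translates them. Its RNA is mitochondrial, but its proteins are encoded in the nucleus, translated in the cytosol and imported, so the level of their transcripts depends on nuclear expression. Many of these proteins have counterparts in the bacterial ribosome, and others are found only in mitochondria. The role of each protein is given below as it is known for the budding yeast protein of the same name. By those names, 27 members have a bacterial counterpart and 12 are specific to mitochondria.

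Each value is the deposited signal of a probe set on a linear scale. Array medians lay between 1.52 and 2.0. A change is the difference of log2 signal from 0 min, so that -1 is a halving, and its standard error (SE) comes from a limma fit over all 32 arrays. A member was called when its p-value, adjusted by the Benjamini-Hochberg method over all 4972 probe sets, was under 0.05. One array stood apart. The highest correlation of the 30 min array of stressed culture 2 with any other array was 0.909, against at least 0.973 for each of the other 31 arrays. The members described at 30 min are therefore also given without it, by a fit that sets the 30 min array of culture 1 against both 0 min arrays. That fit ignores which culture a 0 min array came from, so a gap between the 2 cultures at 0 min enters its changes.

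Transcripts of the mitochondrial ribosome had their lowest median 30 min after peroxide, when 39 of the 40 members had a mean below their 0 min level, and the median was nearer to that level at 60 min. The depth of that low point rests in large part on 1 array. Without the 30 min array of culture 2 the median was -0.27, above that of both cultures together at each later stressed time. It sets culture 1 at 30 min against the 0 min arrays of both cultures, so the comparison is not like for like. Against its own 0 min array culture 1 had a median of -0.43 at 30 min, and 16 members were lowest then. The median change of the members was -0.14 after 5 min, -0.05 after 10 and -0.14 after 15, then -0.63 after 30 min and -0.32 after 50. Later it was -0.29 after 60 min and -0.40 after 90, then -0.33 after 120 min, -0.34 after 180 and -0.29 after 240. The median over all probe sets stayed between -0.11 and -0.02 at these times. Without rsm1 the median at 30 min was -0.59. In untreated cultures the members' median was 0.06 after 60 min, 0.05 after 120, -0.36 after 180 and -0.34 after 240, and the median of all probe sets lay between -0.04 and -0.03.

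**Figure D1:**
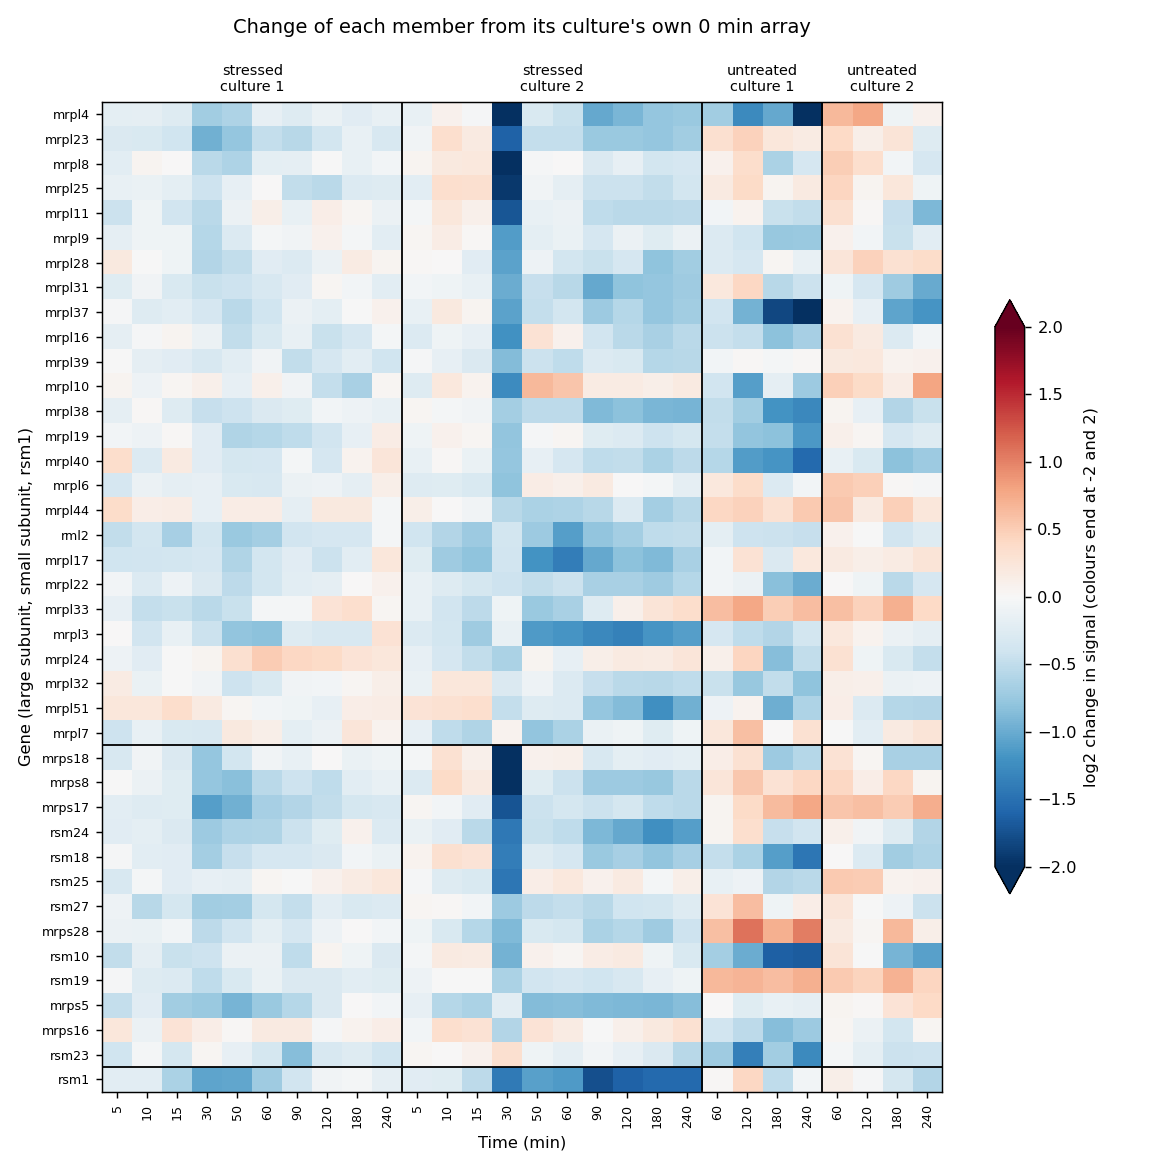
Change in log2 signal of each of the 40 members (rows, by subunit and by mean change at 30 min in stressed cultures) from the 0 min array of its own culture. Columns are times in minutes in stressed cultures 1 and 2 and then untreated cultures 1 and 2, blue is lower and red is higher, and colours end at -2 and 2. The 30 min column of stressed culture 2 is the darkest blue, with 17 members at or below -1, and the late untreated columns hold both colours.

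At 30 min the signal was lower than at 0 min in both stressed cultures for 34 of the 40 members, against 35.9% of all probe sets. Only rsm23 was higher in both. For 24 members both 30 min values lay below both 0 min values, as they did for 22.6% of all probe sets. The change from 0 min had a median of -0.43 in culture 1 and -0.88 in culture 2. At least a halving was seen in 2 members in culture 1 and in 17 in culture 2, whereas 5.95% and 11.9% of all probe sets were that far down in cultures 1 and 2. No member passed the adjusted threshold of limma at 30 min, where 0.201% of all probe sets were called lower, and 12 members were lower at an unadjusted p under 0.05, as were 267 of the 4972 probe sets. With the culture as a block, which compares each 30 min array with the 0 min array of its own culture, 14 members were called lower and none higher. In that fit 4.32% of all probe sets were called lower and 3.84% higher.

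These calls rest in large part on the 30 min array of stressed culture 2. Without it no member was called without the block and 1 was called with it, where 0.121% and 1.13% of all probe sets were called. The members' changes then lay between -0.93 and 0.31, with 35 of 40 below 0 and no adjusted p under 0.448. Without the 30 min array of culture 1 instead, the median was -1.09, with 11 members called without the block and 19 with it, against 5.53% and 15.7% of all probe sets. In culture 1 alone, 35 of the 40 members were below their 0 min value at 30 min. Why that array stands apart was not tested.

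Among small subunit proteins, mrps17, the counterpart of bacterial S17, had the lowest p-value of the 40 members at 30 min. Its signal was 1.48 and 0.663 at 30 min in stressed cultures 1 and 2, against 3.16 and 2.19 at 0 min. The groups did not overlap, and the change was -1.41 ± 0.36 (SE; adjusted p 0.0668 in limma, 0.00265 with the culture block). It was called with each array centred on its median (adjusted p 0.0310) and after quantile normalization (adjusted p 0.0231) but not when the fit held the compared times alone (adjusted p 0.324). Without the 30 min array of culture 2 the change was -0.83 (limma adjusted p 0.448), and over all alternatives the adjusted p lay between 0.00265 and 0.448. By 240 min mrps17 stood at 2.53 and 1.52 in stressed cultures 1 and 2, each below the 0 min value of its own culture. In untreated cultures it was at 6.24 and 4.37 at 240 min, against 3.67 and 2.65 at 0 min, so both later values were above both earlier ones.

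The lowest changes in the small subunit also included mrps18 and mrps8, known as counterparts of bacterial S11 and S8. For mrps18 the signal was 2.14 and 0.557 at 30 min in cultures 1 and 2, against 3.65 and 2.66 at 0 min, a change of -1.51 ± 0.47 (limma adjusted p 0.122, 0.0108 with the block). By 60 min it was back at 3.46 and 2.87, a change of 0.02. For mrps8 the signal was 2.94 and 0.913 at 30 min, against 5.04 and 4.04 at 0 min, a change of -1.46 ± 0.50 (limma adjusted p 0.181, 0.0154 with the block). Unlike mrps18, mrps8 was still lower in both cultures at 60 min, at 3.48 and 2.98. The block also called rsm18 (-1.03 ± 0.29), rsm24 (-1.08 ± 0.30), rsm19 (-0.57 ± 0.15) and, named here after its values were seen, rsm27 (-0.71 ± 0.20), of which rsm18 and rsm19 are named for bacterial S18 and S19. Without the 30 min array of culture 2, and against both 0 min arrays, the changes were -0.54 for mrps18, -0.62 for mrps8 and -0.52 for rsm18. They were -0.47 for rsm24, -0.43 for rsm27 and -0.14 for rsm19. Against its own 0 min array, culture 1 changed by -0.77 for mrps18, -0.69 for rsm18 and -0.73 for rsm24. Of the members that the block called, rsm27 and rsm19 moved by nearly the same amount in the 2 cultures: -0.70 and -0.72 for rsm27, -0.51 and -0.63 for rsm19.

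One small subunit member went the other way. The signal of rsm23, a GTP-binding protein related to human DAP3, was 4.21 and 4.39 at 30 min, against 4.08 and 3.51 at 0 min. Both later values were the higher ones, but the change of 0.18 ± 0.30 was smaller than its error (limma adjusted p 0.787). The median change of the 13 small subunit members at 30 min was -0.71, and -0.43 without the 30 min array of culture 2.

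In the large subunit all 26 members had a negative mean change at 30 min, with a median of -0.54, and of -0.22 without the 30 min array of culture 2. The lowest was mrpl4, the counterpart of bacterial L29. Its signal was 2.23 and 0.554 at 30 min in cultures 1 and 2, against 3.59 and 2.73 at 0 min, a change of -1.5 ± 0.63 (limma adjusted p 0.278, 0.0498 with the block). For mrpl23, the counterpart of bacterial L13, it was 2.71 and 1.16 at 30 min, against 5.26 and 3.56 at 0 min, a change of -1.29 ± 0.52 (limma adjusted p 0.250, 0.0127 with the block). In mrpl9, the counterpart of bacterial L3, it was 3.36 and 2.01 at 30 min, against 4.99 and 4.37 at 0 min, a change of -0.85 ± 0.24 (limma adjusted p 0.0894, 0.0122 with the block). The block called 4 more large subunit members, named here after their values were seen: mrpl8 (-1.28), mrpl25 (-1.17), mrpl11 (-1.13) and mrpl39 (-0.59). Of those, mrpl25 is specific to mitochondria, and the others correspond to bacterial L17, L10 and L33. Without the 30 min array of culture 2, and against both 0 min arrays, the changes were -0.67 for mrpl23, -0.49 for mrpl4 and -0.47 for mrpl9. Those of the other 4 lay between -0.30 for mrpl8 and -0.04 for mrpl39. Against its own 0 min array, culture 1 changed by -0.95 for mrpl23, -0.69 for mrpl4, -0.57 for mrpl9 and -0.55 for mrpl11. In culture 1 the signal of mrpl39 was 6.375 at 30 min, against 7.925 at 0 min, and that of mrpl25 was 2.397, against 3.205. At the other end, mrpl32 (-0.18), mrpl51 (-0.15) and mrpl7 (-0.12) were close to their 0 min level at 30 min, and the last 2 of these had opposite signs in the 2 cultures.

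Members with a bacterial counterpart and those specific to mitochondria had similar medians at 30 min, -0.58 over 27 genes and -0.70 over 12, and without the 30 min array of culture 2 they were -0.28 and -0.17. Over the 40 members, the changes at 30 min in the 2 cultures correlated with r = 0.50, and over all probe sets with r = 0.59. Genes are not independent replicates in such correlations, which are descriptions.

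**Figure D2:**
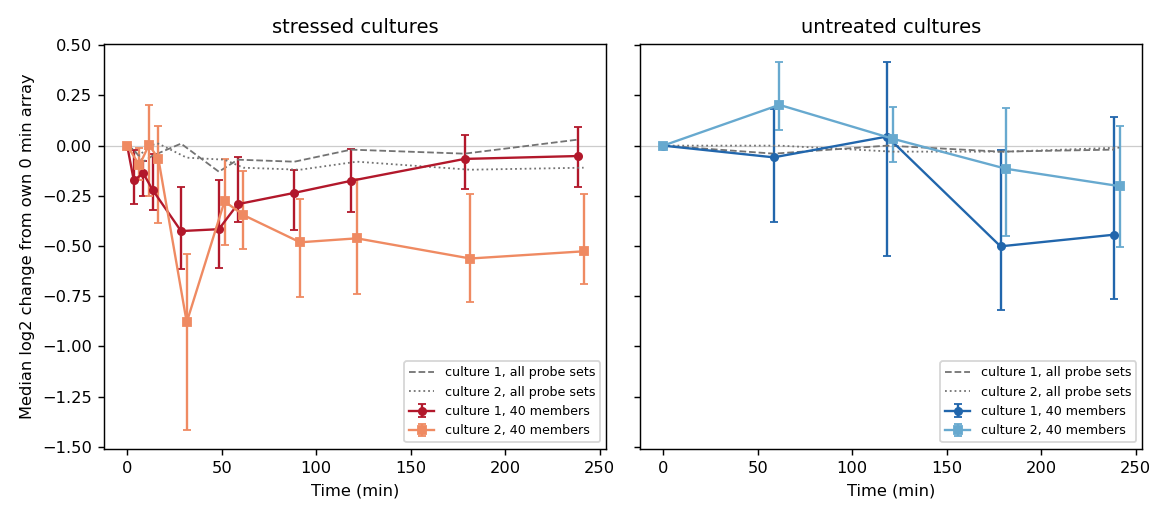
Median log2 change of the 40 members from the 0 min array of each culture (coloured lines, with bars from the lower to the upper quartile of the members), in stressed cultures on the left and untreated cultures on the right, against time in minutes; points of the 2 cultures are set slightly apart. Grey lines are the medians of all probe sets. In stressed culture 2 the median was -0.88 at 30 min and -0.53 at 240 min, and in stressed culture 1 it was -0.43 at 30 min and -0.05 at 240 min.

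The low point was sharp in culture 2, on the 30 min array that stood apart, and drawn out in culture 1. At 30 min 28 members were lower than at 15 min in both cultures, as were 30.1% of all probe sets. The median step was -0.20 for culture 1 and -0.83 for culture 2. At 50 min 19 members were higher than at 30 min in both cultures, against 25.2% of all probe sets, with median steps of 0.03 in culture 1 and 0.65 in culture 2. Each culture's lowest value of its whole series fell at 30 min for 16 members in culture 1 and for 26 in culture 2. A further 11 members were lowest at 50 min in culture 1, and 2 were in culture 2. Both steps of culture 2 and its 26 members lowest at 30 min rest on its 30 min array. The sharp shape therefore cannot be told apart from a trait of that array.

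Some members were lower at 60 min than at 30 min. One was rml2, the counterpart of bacterial L2, which lies beside the catalytic centre of the ribosome. In stressed culture 1 its signal was 1.71 at 0 min, then 1.22 after 5 min, 1.33 after 10, 1.08 after 15, 1.33 after 30, 1.02 after 50 and 1.07 after 60. In culture 2 it was 1.93 at 0 min, then 1.47 after 5 min, 1.28 after 10, 1.17 after 15, 1.5 after 30, 1.16 after 50 and 0.900 after 60. Each of these later values was under the 0 min value of its culture, and in both cultures the 30 min value was above those at 15 and 50 min. By 240 min rml2 was at 1.67 and 1.38 in cultures 1 and 2.

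At 60 min rml2 averaged 0.985 ± 0.120 in stressed cultures, against 1.82 ± 0.151 at 0 min (SD, n = 2 each). It fell by 0.89 on the log2 scale (SE 0.19, limma adjusted p 0.0363, 0.0160 with the block), lower in 2 of 2 cultures, and was the only member called at 60 min, where 0.101% of all probe sets were called lower. At 50 min the change was -0.74 ± 0.19 (limma adjusted p 0.0829), and the block called it (adjusted p 0.0417) where it called 0.322% of all probe sets lower. The call at 60 min was lost with arrays centred on their median (adjusted p 0.0539), after quantile normalization (adjusted p 0.0651), with the compared times alone (adjusted p 0.0841) and whenever a culture or a 0 min array was left out. In those leave-outs the change lay between -1.10 and -0.68 and the adjusted p between 0.0598 and 0.449. In untreated cultures rml2 was at 1.49 and 1.49 at 60 min, against 1.71 and 1.41 at 0 min.

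The large subunit proteins mrpl3 and mrpl17, both specific to mitochondria, were also lower at 60 than at 30 min in both cultures, and neither was called. In mrpl3, which in budding yeast has a ribonuclease III-like fold, the signal was 0.755 and 0.836 at 60 min in cultures 1 and 2, against 1.34 and 1.89 at 0 min. The change was -1.0 ± 0.32 (limma adjusted p 0.171), and the culture 2 value at 30 min had been 1.69. In mrpl17 it was 1.85 and 0.884 at 60 min, against 2.39 and 2.29 at 0 min, a change of -0.87 ± 0.48 (limma adjusted p 0.323). The small subunit member mrps5, named here after its values were seen, changed by -0.79 ± 0.33 (limma adjusted p 0.219), and rsm1, the export factor, by -0.92 ± 0.65 (limma adjusted p 0.445).

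Over all 40 members, 26 were lower in both cultures at 60 min than at 0 min, against 45.6% of all probe sets. At the top were mrpl10 (0.33), mrps16 (0.17), mrpl24 (0.17) and rsm25 (0.12), none of them called. Across all 10 later times of the stressed series, the F-test called none of the 40 members with or without the culture block, 0.483% of all probe sets without it and 1.03% with it. The lowest F-test p among the members was that of rml2, unadjusted 0.0101 and adjusted 0.323.

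**Figure D3:**
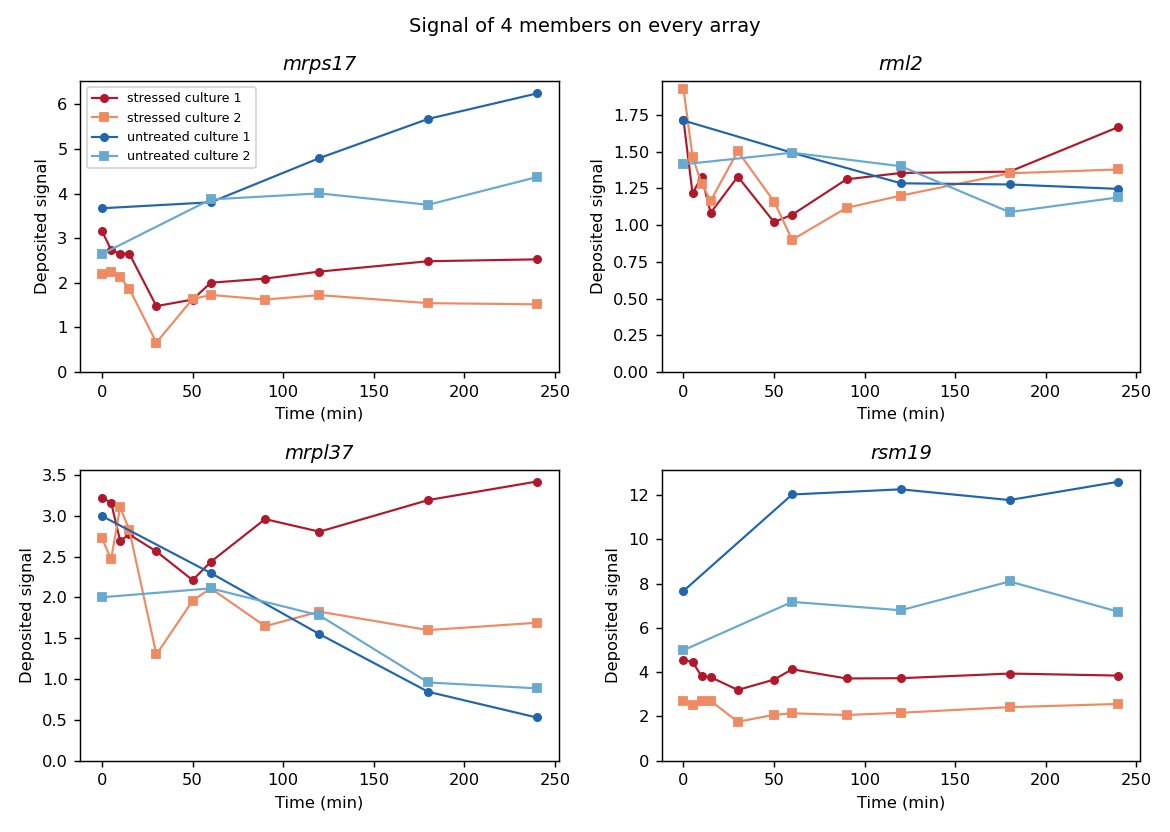
Deposited signal of mrps17, rml2, mrpl37 and rsm19 on every array against time in minutes, with stressed cultures in red and orange, untreated cultures in blue, circles for culture 1 and squares for culture 2. The signal of mrps17 was 1.48 and 0.663 at 30 min in stressed cultures 1 and 2, that of rml2 was 1.07 and 0.900 at 60 min, and that of mrpl37 was 0.530 and 0.887 at 240 min in untreated cultures 1 and 2.

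At the other stressed times no member was called. The share of all probe sets called in either direction by limma was 0.0% at 5, 10 and 15 min. It was 0.302% after 50 min, 0.322% after 90, 0.161% after 120, 0.0402% after 180 and 0.0201% after 240. Members lower at an unadjusted p under 0.05 numbered 1 at each of 5, 10 and 15 min, 3 at 50 and 90 min, 2 at 120 and 180 min and none at 240 min, and none was higher. Of all 4972 probe sets the number lower by that measure was 4 after 5 min, 20 after 10, 55 after 15 and 534 after 50, then 332 after 90 min, 155 after 120, 99 after 180 and 46 after 240. At 5 min, 26 members were already lower in both cultures than at 0 min (35.7% of all probe sets), but no drop in either culture exceeded -0.49. With arrays centred on their median that count was 16, against 24.8% of all probe sets. The count was 18 at 10 min (36.8%), 21 at 15 min (34.5%) and 29 at 50 min (47.4%), with the share of all probe sets in brackets. It was 34 after 90 min (40.7%), 28 after 120 (38.3%), 24 after 180 (32.2%) and 24 after 240 (23.9%).

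From 90 min on, the cultures parted. In culture 1 the members' median was -0.24 after 90 min, -0.18 after 120, -0.07 after 180 and -0.05 after 240. In culture 2 it was -0.48 after 90 min, -0.46 after 120, -0.56 after 180 and -0.53 after 240. The correlation between cultures over the members was 0.52 at 60 min, 0.03 at 180 min and 0.20 at 240 min, and over all probe sets it was 0.83, 0.29 and 0.04. The late pattern of culture 2 resembled the earlier one of culture 1: its changes at 240 min correlated with those of culture 1 at 60 min with r = 0.67 over the members and 0.89 over all probe sets. At 240 min 1.25% of all probe sets were at least halved in culture 1, and 12.7% were in culture 2, so the parting was not confined to the members.

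The spread at 240 min was wide. The signal of rsm1 was 2.99 in culture 1 and 0.982 in culture 2, against 3.39 and 2.87 at 0 min. For mrpl3 it was 1.63 and 0.877, against 1.34 and 1.89 at 0 min, so that the 2 cultures moved in opposite directions. The lowest mean changes were those of rsm1 (-0.86), rsm24 (-0.69), mrpl38 (-0.53) and mrpl23 (-0.51), and the highest those of mrpl24 (0.23), mrps16 (0.22), mrpl33 (0.20) and rsm25 (0.17). Each of these 8 changes had a limma adjusted p of at least 0.942.

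In untreated cultures the members split late in the series, some ending lower and some higher. At 60 min 2 members were lower in both cultures than at 0 min, against 33.9% of all probe sets, and 16 were higher in both, against 28.3%. None was called at 60 or 120 min, where 0.0402% and 1.13% of all probe sets were, and the members at an unadjusted p under 0.05 numbered 0 at 60 min and 2 at 120 min. All probe sets at that p numbered 77 higher and 43 lower after 60 min, and 232 higher and 235 lower after 120. At 180 min 24 members were lower in both cultures (41.1% of all probe sets) and at 240 min 22 were (37.5%). By 240 min 27 members had a negative and 13 a positive mean change. At 180 min the changes in the 2 cultures correlated with r = 0.92 over the members and 0.84 over all probe sets, and at 240 min with 0.58 and 0.77.

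The same 3 members were called lower at 180 and at 240 min. The first, mrpl37, is a large subunit protein specific to mitochondria. Its signal was 0.530 and 0.887 at 240 min in untreated cultures 1 and 2, against 3.0 and 2.0 at 0 min, and it fell by 1.84 (SE 0.40, limma adjusted p 0.00611). The second, rsm10, corresponds to bacterial S10 and was at 0.274 and 0.305 at 240 min, against 0.866 and 0.644 at 0 min. It fell by 1.37 (SE 0.37, limma adjusted p 0.0241). The third, mrpl40, corresponds to bacterial L24 and was at 1.04 and 1.46 at 240 min, against 3.06 and 2.41 at 0 min. It fell by 1.14 (SE 0.26, limma adjusted p 0.00926). All 3 fell in 2 of 2 cultures, and 3.96% of all probe sets were called lower at 240 min. Their changes at 180 min were -1.44 for mrpl37, -1.29 for rsm10 and -1.0 for mrpl40 (limma adjusted p 0.0364, 0.0463 and 0.0299), where 1.87% of all probe sets were called lower.

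These 3 calls were sensitive to leaving out an untreated culture. At 240 min those of mrpl37 and mrpl40 depended more on culture 1 than on culture 2. Without untreated culture 1 the changes at 240 min were -1.17 for mrpl37 (limma adjusted p 0.628), -1.08 for rsm10 (0.632) and -0.72 for mrpl40 (0.651). Without untreated culture 2 they were -2.5 (0.044) for mrpl37 and -1.55 (0.0471) for mrpl40, while rsm10 at -1.66 was no longer called (0.134). With the compared times alone, mrpl40 was not called at 240 min (limma adjusted p 0.0641). At 180 min none of the 3 was called without either untreated culture, mrpl40 was not without either stressed culture (adjusted p 0.0578), and rsm10 was not with a pseudocount of 0.1 (adjusted p 0.0638).

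With the culture as a block, 7 members were called lower and 2 higher at 240 min, against 8.41% and 10.7% of all probe sets. The lower ones also included mrpl38 (-0.87), rsm18 (-1.04), rsm23 (-0.84) and, named here after its values were seen, mrpl22 (-0.67). The higher ones were mrps17 (0.74) and rsm19 (0.57). The signal of rsm19 was 12.6 and 6.73 at 240 min in untreated cultures 1 and 2, against 7.67 and 4.99 at 0 min, and had reached 12.0 and 7.17 by 60 min. At 180 min the block called 7 members lower and 1, rsm19, higher, where it called 4.69% of all probe sets lower and 7.46% higher. At 120 min it called rsm19 alone (0.56), against 2.29% of all probe sets called higher. Without untreated culture 1, no member was called at 180 or 240 min, where 0.784% and 0.744% of all probe sets were called without the block and 2.09% and 2.55% with it. Without untreated culture 2, none was called at 180 min and 2 at 240 min without the block, against 0.805% and 2.7% of all probe sets. With the block these were 2 and 6 members, against 2.35% and 8.51%. Leaving out stressed culture 1 or stressed culture 2 gave 5 members at 240 min without the block, against 13.5% of all probe sets.

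**Figure D4:**
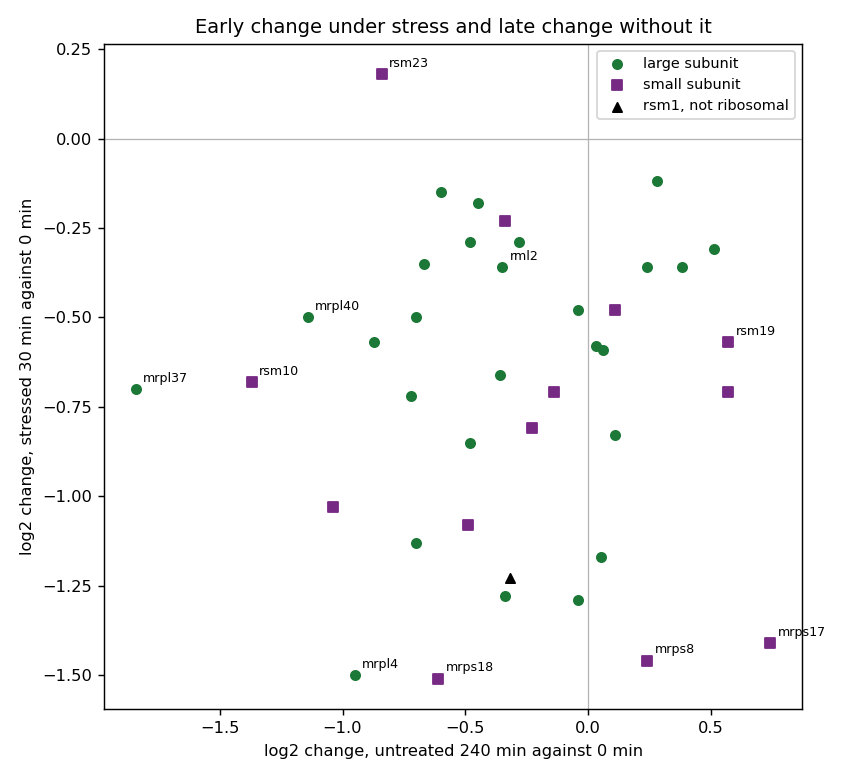
Mean log2 change of each of the 40 members at 30 min of stress (vertical axis) against its change at 240 min in untreated cultures (horizontal axis), each from 0 min of its own series; circles are large subunit, squares small subunit proteins, and the triangle is rsm1. Of the members 26 lie below 0 on both axes and 13 are below 0 under stress and above 0 in late untreated cultures, and mrps17 is at -1.41 and 0.74.

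The order of the members after peroxide bore no close relation to their order late in untreated growth. Over the 40 members, the changes at stressed 30 min and untreated 240 min, which share no arrays, correlated with r = -0.01, against 0.30 over all probe sets. Of the members 26 were lower in both, 13 were lower under stress and higher in late untreated cultures, and 1, rsm23, was the reverse. The 3 members called in untreated cultures changed at stressed 30 min by -0.70 (mrpl37), -0.68 (rsm10) and -0.50 (mrpl40), none called.

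The stressed change was set against the untreated change at the 4 later times that both series share. The median difference of the members, stressed minus untreated, was -0.36 after 60 min, -0.33 after 120, 0.04 after 180 and 0.09 after 240, and over all probe sets it was between -0.08 and -0.01. The stressed cultures had parted by 180 and 240 min, as given above. The late values therefore average 2 unlike courses and do not show that stressed and untreated cultures were alike. No member was called by limma at any of the 4 times, where 0.0402%, 0.261%, 1.45% and 1.49% of all probe sets were called at 60, 120, 180 and 240 min. At an unadjusted p under 0.05, 1 member was lower at 60 min, 1 higher at 180 min, and 2 higher and 1 lower at 240 min. All probe sets at that p numbered 217 higher and 112 lower after 60 min, 271 and 150 after 120, 228 and 280 after 180, and 270 and 320 after 240.

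With the culture block rsm19 was called at 120 min (difference -0.87 ± 0.21, adjusted p 0.0464), at 180 min (-0.84 ± 0.21, adjusted p 0.0286) and at 240 min (-0.73 ± 0.21, adjusted p 0.0473). At 240 min it also called mrps17 lower (-1.17 ± 0.31, adjusted p 0.0330) and mrpl37 higher (1.54 ± 0.44, adjusted p 0.0473). All probe sets called lower and higher in that fit were 1.17% and 0.543% after 120 min, 3.26% and 1.35% after 180, and 4.06% and 2.23% after 240. The difference of mrpl37 lies in the untreated series: at 240 min it stood at 3.42 and 1.69 in stressed cultures 1 and 2, against 3.22 and 2.72 at 0 min. Those of rsm19 and mrps17 join lower stressed values with a rise in untreated cultures. For rsm19 the signal at 240 min was 3.85 and 2.57 in stressed cultures, against 4.54 and 2.72 at 0 min. In untreated cultures 1 and 2 it was 12.6 and 6.73, against 7.67 and 4.99. For mrps17 the untreated values were 6.24 and 4.37, against 3.67 and 2.65.

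Before treatment the stressed and untreated cultures differed for some members. The largest gap was in mrpl44, named here after its values were seen, a large subunit protein specific to mitochondria. It averaged 1.2 ± 0.256 in stressed cultures at 0 min and 3.24 ± 0.401 in untreated cultures at 0 min (SD, n = 2 each), a difference of -1.45 ± 0.53 that was not called (limma adjusted p 1.0). At the same time rsm19 averaged 3.63 ± 1.29 and 6.33 ± 1.89 in stressed and untreated cultures, and mrpl33 2.13 ± 0.361 and 3.81 ± 1.02. The median difference of the members at 0 min was -0.05, against -0.10 for all probe sets, and 0.0% of all probe sets were called (2 members and 47 of the 4972 probe sets lower at an unadjusted p under 0.05).

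**Figure D5:**
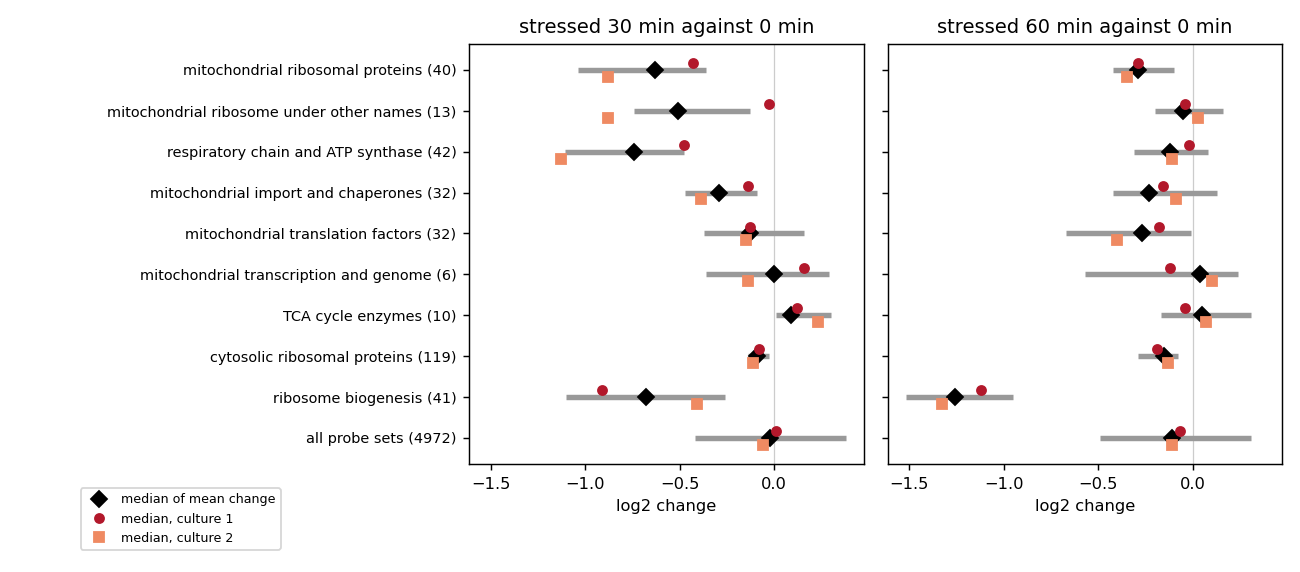
Median log2 change at 30 min (left) and 60 min (right) of stress for the mitochondrial ribosomal protein genes and other gene lists, with the number of probe sets in brackets. Diamonds are medians of the mean change, grey bars run from the lower to the upper quartile, red circles are culture 1 and orange squares culture 2. At 30 min the median was -0.63 for the members, -0.68 for ribosome biogenesis and -0.74 for the respiratory chain, and at 60 min ribosome biogenesis is lowest (-1.26). Without the 30 min array of culture 2 the 30 min medians were -0.27, -0.94 and -0.36, in that order.

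Other nuclear genes for mitochondrial translation and respiration were measured on the same arrays. One list holds nuclear genes named for the respiratory chain and the ATP synthase, whose mitochondrial subunits this ribosome makes. The list was taken largely by symbol, so it was not limited to subunits, and it shares cox24 with the list of other ribosomal genes below. Its 42 probe sets had a median of -0.74 at 30 min, 2 were called lower by limma and 14 with the culture block. The called genes were atp16 (-1.62, adjusted p 0.0401), a subunit of the ATP synthase, and qcr8 (-1.16, adjusted p 0.0401), a subunit of the cytochrome bc1 complex. The signal of atp16 was 6.67 and 1.89 at 30 min in cultures 1 and 2, against 12.4 and 9.67 at 0 min, and that of qcr8 was 5.33 and 2.89, against 9.85 and 7.79. Without the 30 min array of culture 2 the median was -0.36 and none was called, with atp16 at -0.71 (limma adjusted p 0.424) and qcr8 at -0.72 (0.414). Both calls were also lost in limma with the 0 to 60 min arrays alone (adjusted p 0.0988 and 0.0948) and the compared times alone (0.375 and 0.321). They were lost as well when stressed culture 2, either untreated culture or either stressed 0 min array was left out. By 60 min the median was -0.12, about that of all probe sets.

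A further 13 genes of the mitochondrial ribosome carry other names, and their median at 30 min was -0.51. In that list bot1 was called (-1.13, adjusted p 0.0459), with a signal of 1.78 and 0.753 at 30 min, against 2.65 and 2.44 at 0 min. The list's median was -0.03 in culture 1 and -0.88 in culture 2, and without the 30 min array of culture 2 it was 0.05 with none called and bot1 at -0.51 (limma adjusted p 0.424). The bot1 call was also lost in limma with the 0 to 60 min arrays alone (adjusted p 0.0953) and the compared times alone (0.383). It was lost as well when stressed culture 2, either untreated culture or either stressed 0 min array was left out. With the culture block 2 of the 13 were called lower at 30 min. The list of 32 genes for mitochondrial translation factors, ribosome assembly and tRNA charging had a median of -0.13, with none called, 2 higher and 1 lower at an unadjusted p under 0.05, and 1 called lower with the culture block. Its lowest gene was trz2, a tRNA-processing enzyme (-1.74 ± 0.45, limma adjusted p 0.0698). The 6 genes of mitochondrial transcription and genome maintenance had a median of 0.00 with none called, and the 32 of import and chaperones -0.29 with none called and 1 called lower with the block. Without the 30 min array of culture 2 these 2 medians were 0.12 and 0.02, and that of the 32 translation genes was -0.04.

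Enzymes of the tricarboxylic acid cycle and pyruvate dehydrogenase had a median above 0 at that time. Their 10 probe sets had a median of 0.09, and of 0.02 without the 30 min array of culture 2. Among them lat1, a pyruvate dehydrogenase subunit, was called higher by limma (1.12, adjusted p 0.0401). The signal of lat1 was 11.0 and 20.6 at 30 min, against 7.13 and 6.68 at 0 min, and without the culture 2 array the change was 0.67 (adjusted p 0.406). Centring arrays on their median gave it an adjusted p of 0.0734 and the compared times alone 0.324, and over all alternatives it lay between 0.00222 and 0.406. The 119 cytosolic ribosomal proteins had a median of -0.09 at 30 min and -0.15 at 60 min, with none called at either time. The culture block called 2 of them lower at 30 min. At 60 min 2 were called lower with the 0 to 60 min arrays alone and 1 without stressed culture 1.

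Genes listed for ribosome biogenesis by symbol pattern or name, 41 in the list, had a lower median at 60 min than at 30 min. The pattern also took imp1, imp2 and rlp1, and the role of each listed gene in fission yeast was not checked. The median of the 41 was -0.68 at 30 min, and -0.94 without the 30 min array of culture 2. At 60 min it was -1.26, when the members' median was -0.29. None of them was called at 60 min by limma, with 29 lower at an unadjusted p under 0.05, as were 539 of the 4972 probe sets, and none was called with the culture block. With the stressed arrays of 0 to 60 min alone 22 were called lower (4.95% of all probe sets), and 18 were with the compared times alone (3.9%). Without stressed culture 1 the count was 16 (3.26%), and without culture 2 it was 6 (1.75%). In culture 1 their median at 30 min was -0.91 and in culture 2 it was -0.41, the reverse of the order in the members (-0.43 and -0.88). With culture 1 alone the median of the 41 was -1.12 at 60 min. Without the 30 min array of culture 2 the members' median at 30 min was -0.27. Late in untreated cultures, at 240 min, the median was -0.29 for the respiratory chain, -0.38 for the other ribosomal genes, -0.19 for cytosolic ribosomal proteins and -0.19 for ribosome biogenesis, beside -0.34 for the members.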

How the data were processed

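Total RNA was labelled with biotin and hybridised to 32 single-colour Affymetrix arrays, per the labels' protocols. The values are the signal per probe set in the value table the authors deposited, linear, from 0.0029 to 64.6. The background, probe summary and scaling steps are not given in the sources used here. Genes were named through the platform annotation, and all 40 members matched RefSeq by gene ID (2 with a newer symbol). One probe set listed as ppr1 was left out of the translation list because its gene ID now belongs to another gene.

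Log2 signals were fitted with limma 3.58.1 in R 4.3.3, with 1 mean per group (16 groups, 16 residual degrees of freedom) and Benjamini-Hochberg adjustment over all 4972 probe sets in each of 19 comparisons and the F-test over stressed times. The pipeline was first tested on simulated data. Groups and times come from sample titles. Same-numbered arrays of a series were taken from their titles as 1 batch culture, a pairing inside each series but not across series. The labels do not say which arrays came from which culture, so every block result assumes this pairing. Deviations of same-numbered arrays correlated with a median r of 0.259 in stressed (34 of 55 pairs of times above 0.1) and 0.707 in untreated cultures (10 of 10). The lowest r was -0.369 in stressed and 0.362 in untreated cultures. Calls with the culture as a block (14 residual degrees of freedom) stand beside those without it where their number differs.

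Members named in the text were those called in a comparison with both cultures alike, the 4 highest and 4 lowest at stressed 30, 60 and 240 min and untreated 240 min, the 6 with the lowest F-test p, and rml2. From each other gene list, up to 3 genes with the lowest F-test p could be named, and the text names those that were called, plus trz2. The members, lists and tests were chosen with earlier results of these data known. Alternatives were median centring, quantile normalization, a pseudocount of 0.1, a minimum mean signal of 0.5, subsets of arrays and leaving out each culture. Array batch was not tested, as no scan or slide information was used. No sequence is printed. As a check of the labels, srx1 and ctt1, known peroxide response genes, changed by 3.33 and 3.35 at 60 min of stress. At 240 min the 2 stressed cultures differed in both genes. The signal of srx1 was then 1.80 in culture 1 and 21.4 in culture 2, against 2.50 and 1.94 at 0 min. That of ctt1 was 2.07 and 17.0, against 1.81 and 1.40 at 0 min. In culture 2 srx1 was at 15.25 after 15 min, 6.41 after 30 and 17.0 after 50.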

Additional observations from a re-analysis of the deposited data

How the results depend on the processing

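The number of members called depended on the fit more than the direction of the changes did. At stressed 30 min the count was 0, against 14 with the replicate block by culture and 1 with median centring or quantile normalization; leaving out an array or a culture gave 0 to 11, and with the block 1 to 19 (18 without stressed culture 1 and 3 without culture 2). At stressed 50 min it was 1 with the block, 3 with the 0 to 60 min arrays alone, 1 with the compared times alone and 0 otherwise. Of all probe sets, the block called 1.05%, the 0 to 60 min arrays alone 10.3% and the compared times alone 11.3%. The single call at stressed 60 min became 0 under centring, quantile normalization, the compared times alone and each leave-out of a culture or a 0 min array. At stressed 120 min no member was called in any fit that kept both stressed cultures. At untreated 120 min the block gave 1, against 3.18% of all probe sets. At untreated 180 min, 3 became 8 with the block and 5 with the compared times alone, and fewer when an untreated culture was left out. Of all probe sets 5.53% were called at untreated 180 min in the main fit, 12.1% with the block and 17.2% with the compared times alone. At untreated 240 min, 3 became 9 with the block and 0 to 6 in leave-outs. For the differences between series, the block gave 1 at 120 min, 1 at 180 min and 3 at 240 min, against 0. At 0 min between series, where no paired analysis was possible because each culture belongs to 1 series, the compared times alone gave 1 against 0. The sign turned for mrpl51 at 30 min (0.19 without stressed culture 2, 0.29 without its 30 min array; lowest leave-out -0.58) and mrpl7 at 30 min (0.08 without culture 1, lowest leave-out -0.33). At 60 min it turned for mrpl24 (-0.17 without culture 1, highest leave-out 0.51), and without the 0 min array of culture 2 for rsm25 (-0.02, highest 0.26) and mrps16 (-0.01, highest 0.35). The leave-outs of 30 min arrays, those under the block and the lists without rsm1 were chosen after seeing the data, except leaving out the 30 min array of culture 2. Where a culture was left out, fewer arrays entered the fit, and a lone array was assumed to vary like the other groups. Otherwise the cause was not tested. Leaving out rsm1 changed no count of calls. The unknown scaling of the signal and 2 arrays in each group limit precision.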
